A study of Mus musculus with 30 samples.

Results

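The results concern the binding of Esrrb in asynchronous mouse embryonic stem (ES) cells, called interphase cells here, with doxycycline (DOX) and after DOX withdrawal, and ask where ChIP-seq signal remained without DOX. All 14559 peaks of the authors' deposited peak table were taken, with no further selection, in the 6 interphase libraries of 30 libraries in the series. Which libraries the authors called the peaks in is not stated. The DOX group held 4 libraries, of which replicates 1, 3 and 4 came from EKOiE cells and replicate 2 from wild-type E14Tg2a cells. The withdrawn group held 2 libraries from EKOiE cells kept for 48 h without DOX. Libraries of mitotic cells, used for comparison, were taken as EKOiE except for mitosis DOX replicate 2, which was taken as E14Tg2a. EKOiE is an Esrrb knockout ES line with a DOX-inducible Esrrb transgene. All interphase libraries but DOX replicate 2 thus lack the endogenous protein and differ in the supply of the transgene's product. Both lines are of strain 129/Ola and were grown in serum medium with LIF on gelatine. Separate cultures are not stated for replicates of any group, so each p-value reflects the spread between these libraries, which may be technical. EKOiE is given as 1 line, and results in other clones were not analysed here.

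Esrrb is an orphan nuclear receptor of the estrogen-related receptor family. It binds DNA through a zinc-finger domain that reads the core AAGGTCA, often preceded by TC in ES cell binding sites, and acts at enhancers and promoters together with Oct4, Sox2, Nanog and Klf4. In ES cells it sustains self-renewal and is counted among the naive pluripotency factors. Chromatin immunoprecipitation (ChIP) also recovers some DNA that the protein does not bind, so a library from cells that have lost the protein shows how much signal a peak has without it.

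A peak height is the log2 of reads per M reads of the library (M, mega) and per kb of peak, as the authors deposited it. Each height corresponds to a whole number of reads, which was recovered, with library totals of 10.7 to 58.6 M reads with DOX and 26.6 and 40.5 M reads after withdrawal. RNA of the same kind of cells, sorted by a Ccna2-Gfp reporter and withdrawn for 24 h, was used for genes beside peaks. Markers of ES cells ran from 24.0 to 1605 counts per M counts (CPM) over the 18 RNA libraries, 6 fibroblast or feeder markers from 0 to 11.8 CPM, 4 primitive endoderm markers from 0 to 2.40 CPM and 4 trophoblast markers from 0 to 3.67 CPM. Col3a1, Postn, Dcn, Sox7, Cdx2, Elf5 and Hand1 were at 0 in at least 1 library. The ChIP-seq cells have no RNA libraries of their own here.

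Sequence could be shown for peaks over promoters alone, because no genome of the peaks' build (mm9) was used. RefSeq promoter windows (GRCm38.p6, 250 bases before to 50 after a gene's start) lay inside a peak at 94 genes with 1 promoter entry, judged by the distance of the peak to the start in mm9. The core AAGGTCA, searched on both strands, was in 15 of these 94 windows, or 16%, against 4.72% of all 32851 RefSeq promoters. The longer TCAAGGTCA, which contains the core, was in 2 of the 94, or 2.13%, against 0.423% of all. The 5 windows below were picked by different rules and do not span the response. The promoters of Rab21 and Cbx1 had the smallest differences between DOX and withdrawal of all 94. Clec2d had the highest withdrawn height among windows with the core, and Wdr86 and Ccl20 had the largest differences among windows with the core. The largest difference of the 94, 5.18, was at a window without the core and is not shown. Capitals mark the core on either strand (TGACCTT is its reverse complement).
Rab21: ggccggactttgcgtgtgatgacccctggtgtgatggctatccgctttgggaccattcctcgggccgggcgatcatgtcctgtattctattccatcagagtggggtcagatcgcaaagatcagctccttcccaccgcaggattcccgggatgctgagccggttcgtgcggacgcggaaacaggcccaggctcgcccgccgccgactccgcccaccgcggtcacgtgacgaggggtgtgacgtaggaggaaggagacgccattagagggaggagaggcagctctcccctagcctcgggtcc
Cbx1: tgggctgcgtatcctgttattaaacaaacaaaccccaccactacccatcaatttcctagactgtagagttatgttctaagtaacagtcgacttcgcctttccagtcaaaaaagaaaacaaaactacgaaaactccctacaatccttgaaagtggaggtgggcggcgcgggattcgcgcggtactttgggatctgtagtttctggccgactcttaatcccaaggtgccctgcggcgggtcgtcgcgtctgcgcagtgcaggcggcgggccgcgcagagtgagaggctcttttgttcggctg
Clec2d: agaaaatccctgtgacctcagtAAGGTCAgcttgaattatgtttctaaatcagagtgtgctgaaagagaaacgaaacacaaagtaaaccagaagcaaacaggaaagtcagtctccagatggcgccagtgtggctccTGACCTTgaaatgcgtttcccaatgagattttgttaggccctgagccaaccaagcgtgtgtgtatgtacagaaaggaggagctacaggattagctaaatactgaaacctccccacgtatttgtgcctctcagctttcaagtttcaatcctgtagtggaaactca
Wdr86: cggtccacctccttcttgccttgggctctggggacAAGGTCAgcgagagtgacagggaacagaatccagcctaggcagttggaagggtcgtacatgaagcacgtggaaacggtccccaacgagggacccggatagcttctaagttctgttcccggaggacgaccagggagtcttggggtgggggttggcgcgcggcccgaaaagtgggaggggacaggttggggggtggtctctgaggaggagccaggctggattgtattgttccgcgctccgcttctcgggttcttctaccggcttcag
Ccl20: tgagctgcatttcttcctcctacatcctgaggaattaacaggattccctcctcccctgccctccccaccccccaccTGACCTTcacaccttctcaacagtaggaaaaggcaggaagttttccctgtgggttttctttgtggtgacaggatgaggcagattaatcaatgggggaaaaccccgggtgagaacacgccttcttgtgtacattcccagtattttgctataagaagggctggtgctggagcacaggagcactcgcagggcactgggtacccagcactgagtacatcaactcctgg
The windows are chr10:115315542-115315841 (minus strand, Rab21), chr11:96788885-96789184 (plus, Cbx1), chr6:129180365-129180664 (plus, Clec2d), chr5:24730631-24730930 (minus, Wdr86) and chr1:83116516-83116815 (plus, Ccl20).

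Withdrawal took away most of the signal at nearly every peak. The share of a library's reads that fell in peaks was 3.11%, 6.11%, 4.60% and 9.83% in DOX replicates 1 to 4, against 0.303% and 0.654% in withdrawn replicates 1 and 2. The groups did not overlap, and the E14Tg2a library lay within the range of the EKOiE libraries with DOX. The means were 5.91% ± 2.88 with DOX (SD, n = 4) and 0.479% ± 0.248 after withdrawal (SD, n = 2), a ratio of 12.4. The exact permutation test over libraries, two-sided, gave p = 0.133, the smallest value that 15 arrangements allow. The median peak held 97, 116, 89 and 50 reads in DOX replicates 1 to 4, against 3 and 14 reads in withdrawn replicates 1 and 2, so that single peaks after withdrawal rest on few reads. Withdrawn replicate 1 had 2418 empty peaks (16.6%) and withdrawn replicate 2 had 49 (0.337%).

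**Figure D1:**
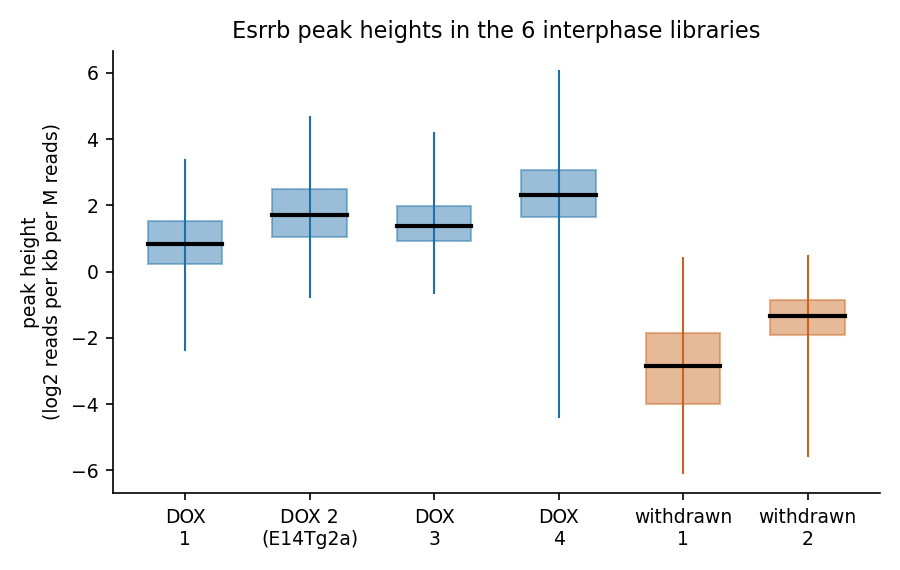
Peak heights (vertical axis, log2 reads per kb of peak per M reads) of all 14559 peaks in each of the 6 interphase libraries; the box spans the 25th to 75th percentile, the black bar is the median and the line runs from the lowest to the highest peak. The DOX medians lie between 0.84 and 2.32, and the withdrawn medians at -2.84 and -1.34.

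Peak by peak, 14500 of 14559 heights were higher with DOX (99.6%) and 0 were lower, by limma with Benjamini-Hochberg adjustment over all peaks at 0.05, and 0 were lower at an unadjusted p under 0.05 too. If the authors called the peaks in the DOX libraries, that choice alone favours higher heights with DOX. The direction of these calls, and of the share of reads in peaks, is then partly set in advance, and the counts are read as a description. The median difference, DOX minus withdrawn, was 3.74 on the log2 scale, so that the median peak kept 7.47% of its height on the linear scale. The smallest difference was -0.46 and the largest 7.39. At 14469 peaks (99.4%) all 4 DOX libraries exceeded both withdrawn libraries. DOX replicates 1 to 3 did so at 14558 peaks, and DOX replicate 4, the least deep library, lay below at least 1 withdrawn library at 90 peaks. These calls describe a shift of the whole peak set: with each library centred on its own median peak, the median difference was 0.09, and 404 peaks were then higher and 79 lower with DOX, which is 83.6% of the calls higher. DESeq2's scaling gave 243 higher and 112 lower (68.5% higher) and edgeR's TMM scaling 0 and 0. Both of those methods set the typical peak to no change. Of all peaks, 39 (0.268%) had 0 reads in both withdrawn libraries, and a difference there is set by the 0.9 read the authors' values give to an empty peak.

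No peak kept a high signal. The highest height in either withdrawn library was 0.49, below the median DOX height of 1.54, so that 0 peaks had a withdrawn height above that median. The planned list of high persisting peaks was therefore empty, and the peaks named below for their withdrawn height or their small difference were chosen after their values were seen. What the withdrawn libraries did keep was an order of peaks. Peaks were ranked by their height in DOX replicate 2, the library from the other cell line, and cut into 10 bins of equal size. From the lowest to the highest bin, the median height in withdrawn replicate 1 ran from -4.32 to -1.48 and in withdrawn replicate 2 from -2.43 to -0.68, rising at each step in both. In DOX replicates 1, 3 and 4 the same bins ran from -0.29 to 2.15, from 0.65 to 2.82 and from 1.71 to 3.68.

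**Figure D2:**
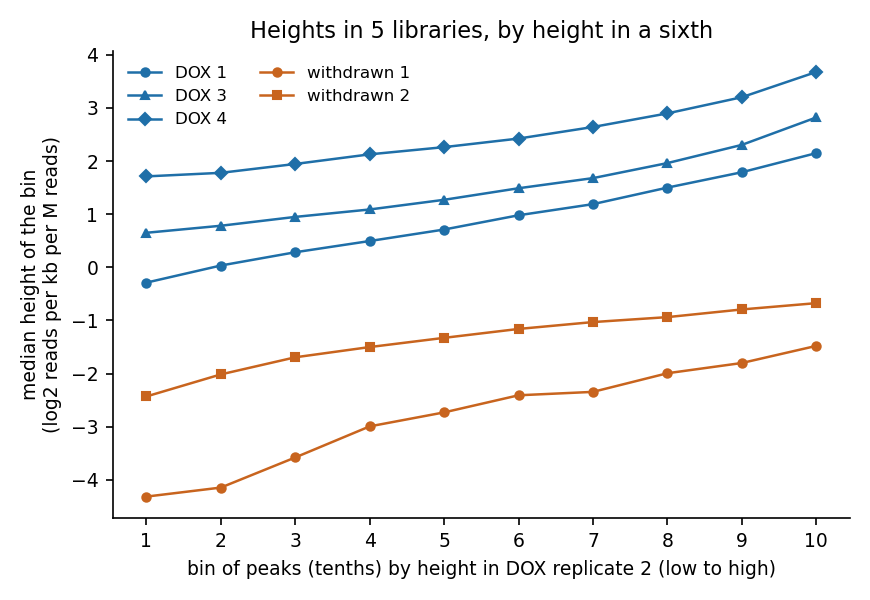
Median height (vertical axis, log2 reads per kb per M reads) in 5 interphase libraries for 10 bins of the peaks ranked by height in DOX replicate 2 (horizontal axis, low to high). All 5 lines rise, and the withdrawn lines end at -1.48 and -0.68, below the start of DOX replicate 1 at -0.29.

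Across the 14559 peaks the Spearman correlation of heights was 0.65 between the withdrawn libraries. DOX replicate 1 correlated at 0.64 with withdrawn replicate 1 and at 0.73 with withdrawn replicate 2, and DOX replicate 2 at 0.61 and 0.65. DOX replicate 4 stood apart, at 0.15 and 0.32 with the withdrawn libraries and at 0.52 to 0.63 with the other DOX libraries. These correlations are across peaks, which share their widths and positions in every library, and the part of low read counts in them was not tested.

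By their medians, the peaks that were highest after withdrawal were strong peaks with DOX. The 728 highest peaks (5%) of withdrawn replicate 1 and those of withdrawn replicate 2 shared 231, which is 31.7% of each list. These 231 peaks had median heights of 2.06, 3.38, 2.62 and 2.64 in DOX replicates 1 to 4, against -0.54 and -0.17 in the withdrawn replicates, and a median difference of 2.92. The withdrawn values chose them, so these values are a description. Read in libraries that the choice did not use, the 728 from withdrawn replicate 1 had a median of -0.55 in withdrawn replicate 2, where all peaks had -1.34, and medians of -0.99 and -0.92 in the 2 withdrawn libraries of mitotic cells, where all peaks had -2.80 and -1.09. The replicate 1 libraries of interphase and mitosis after withdrawal correlated at 0.70 across peaks (Spearman), and whether they share a source was not tested.

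The highest mean withdrawn height was at chr12:40467451-40468050, 297 kb from the start of Arl4a, a small GTPase gene. It held 2.23, 4.04, 3.29 and 2.81 with DOX, against 0.40 and 0.44 after withdrawal (21 and 33 reads), and so kept 15.7% of its height on the linear scale. The next was at chr6:108208651-108208950 inside Itpr1, a calcium channel of the endoplasmic reticulum, with 2.11, 3.86, 2.70 and 4.15 with DOX, against -0.19 and 0.49. A peak at chr10:94918501-94919250 lay 39.4 kb upstream of Socs2, a suppressor of cytokine signalling, with 1.88, 3.58, 3.00 and 4.03 with DOX, against -0.07 and 0.25. In all 3 the groups did not overlap, as at 99.4% of all peaks. Peaks nearest Eva1a, Cbfa2t2 and Slc25a12 followed, with differences of 2.34, 2.53 and 3.05. Cbfa2t2 encodes a corepressor that works with Prdm14 in ES cells. All 6 were class 4 peaks and higher with DOX in the limma test, with adjusted p from 2.2e-05 (Socs2) to 0.0011 (Eva1a).

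The authors sort peaks into 5 classes, of which the first 3 hold the 1980 peaks named Bookmarked and the last 2 the 12579 named Lost. The rule behind the classes is not stated, and the classes may rest on these libraries, so class values are descriptions. Class 1 (450 peaks) had the highest median of the 5 classes in both withdrawn libraries and not with DOX. Its median heights with DOX were 0.78, 1.18, 0.85 and 1.01, against -1.32 and -0.84 after withdrawal. Class 4 (6621 peaks) had 1.37, 2.30, 1.85 and 2.70 with DOX, against -2.41 and -1.02 after withdrawal. Class 1 was thus lower than class 4 in every DOX library and higher in both withdrawn libraries. Class 5 (5958 peaks) overlapped class 1 with DOX, with medians of 0.23, 1.07, 0.95 and 1.98, and lay below it after withdrawal, with -3.73 and -1.82. The class 1 median minus the class 4 median was -1.10 ± 0.46 with DOX (SD, n = 4) and 0.64 ± 0.65 after withdrawal (SD, n = 2), a difference of -1.74 with p = 0.133 in the exact permutation test, two-sided, again the smallest possible. The comparison of classes was added after the data were seen. Because the classes may rest on these same libraries, the test cannot show that the classes differ, and no conclusion is drawn from it.

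The median difference, DOX minus withdrawn, was 2.18 in class 1, 3.83 in class 2, 3.61 in class 3, 3.77 in class 4 and 3.78 in class 5. Class 1 kept a median of 22.1% of its height on the linear scale, and classes 2 to 5 kept 7.05% to 8.18%. Of the 59 peaks that did not pass the limma test, 55 were class 1, 2 class 2 and 2 class 4. Relative to the median peak of each library, 73 of the 79 peaks called lower with DOX were class 1 (92.4%) and 6 were class 2, while 300 of the 404 called higher were class 4 (74.3%), 70 class 2, 21 class 3, 13 class 5 and 0 class 1. The 79 had a median width of 1200 bp, the same as class 1 as a whole, and kept a median of 33.3%. The 404 had a median width of 600 bp, the same as class 4 as a whole, and kept a median of 1.92%. All peaks had a median width of 900 bp.

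**Figure D3:**
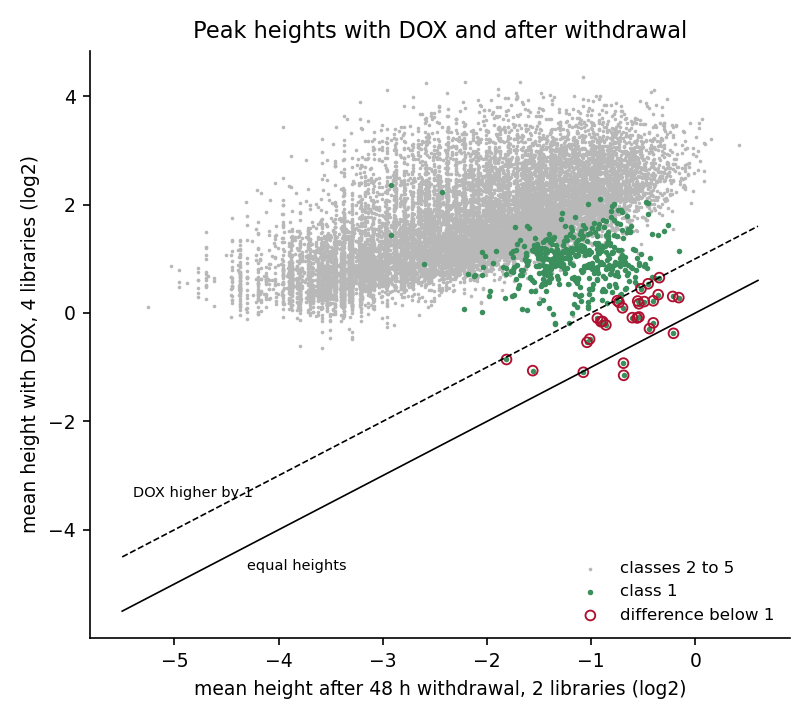
Mean height with DOX (vertical axis, 4 libraries) against mean height after 48 h of withdrawal (horizontal axis, 2 libraries), both in log2 reads per kb per M reads, for every peak; the solid line marks equal heights and the dashed line a difference of 1. Class 1 peaks form the lower right edge, and all 30 peaks with a difference below 1 belong to class 1.

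A difference below 1, which means that more than 50% of the linear height was kept, was taken as persisting signal. It was found at 30 peaks (0.206%), all of them class 1. The last peak inside this limit had a difference of 0.998 and the first outside 1.02. A further 25 class 1 peaks lay outside it and still missed the limma threshold. Of the 30, 20 (66.7%) lay more than 50 kb from any start, against 37.6% of class 1 and 28.3% of all peaks. None lay within 1 kb of a start, against 8.44% of class 1 and 7.99% of all, and 11 (36.7%) lay inside a gene, against 40.0% and 45.3%. They held 8 to 44 reads each in a withdrawn library. Of the 30, 23 were among the 728 highest peaks of withdrawn replicate 1 and 5 among those of withdrawn replicate 2. The choice of the 30 used these heights.

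The 30 depended on DOX replicate 4. Their median heights in DOX replicates 1 to 4 were 0.42, 0.86, 0.36 and -2.0, against -0.63 and -0.79 in withdrawn replicates 1 and 2. DOX replicate 4 was below both withdrawn libraries at 24 of the 30, while DOX replicates 1 to 3 exceeded both at 29 of the 30. Without DOX replicate 4, 14 peaks had a difference below 1, of which 13 were class 1, and 12 of them were among the 30 (40% of the 30 and 85.7% of the 14). With EKOiE libraries alone and no DOX replicate 4 there were 18, of which 17 were class 1, a check chosen after seeing the data. Whether the depth of DOX replicate 4 has a part in its low heights here was not tested.

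The same 30 peaks were above the median of all peaks in mitotic cells with DOX, in libraries that their choice did not use, and so were the other class 1 peaks. Their medians were 1.58, 0.49, 0.13 and 0.99 in the 4 mitosis libraries with DOX, against -1.14 and -1.17 in the 2 mitosis libraries after withdrawal. All peaks had -0.95, -0.37, -0.47 and -0.42 with DOX, against -2.80 and -1.09 after withdrawal in mitosis. The other 420 class 1 peaks had 0.80, 0.40, 0.05 and 0.69 with DOX, against -1.70 and -1.04 after withdrawal. The mean mitosis height with DOX exceeded the mean after withdrawal at 30 of 30 peaks. The group medians did not overlap, and those of all peaks did not either. The mean mitosis height with DOX exceeded the mean of interphase DOX replicates 1 to 3 at 24 of 30, and the choice of the 30 used those interphase values. Neither count was made over all peaks, so neither is read as a trait of the 30.

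**Figure D4:**
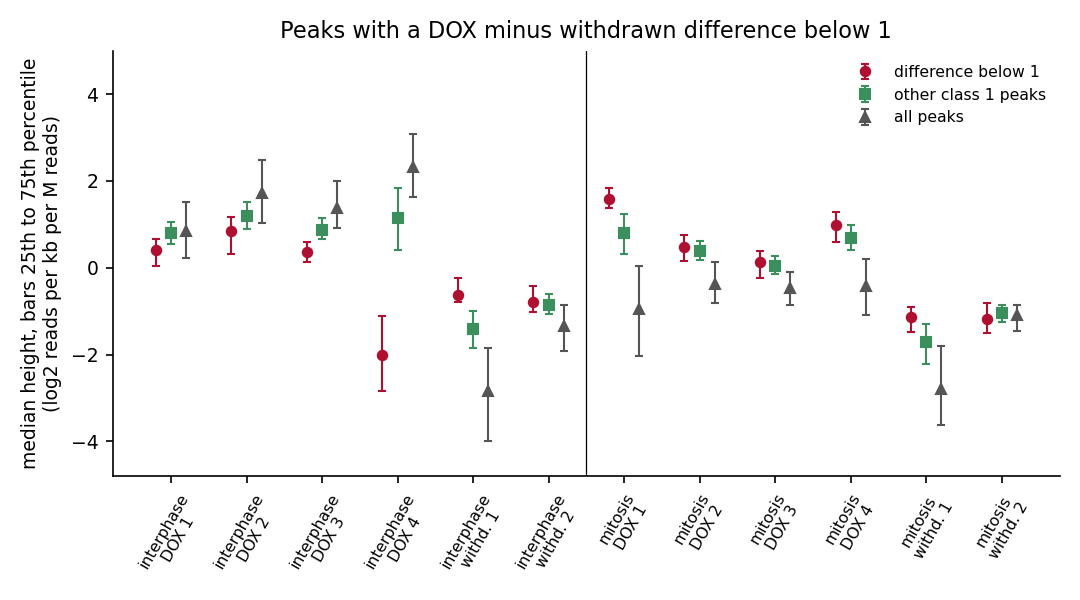
Median height (vertical axis, log2 reads per kb per M reads; bars span the 25th to 75th percentile over peaks) of the 30 peaks with a difference below 1 (circles), the other 420 class 1 peaks (squares) and all 14559 peaks (triangles) in the 12 ChIP-seq libraries, interphase to the left of the line. The circles fall to -2.0 in interphase DOX replicate 4 and lie above the triangles in all 4 mitosis libraries with DOX.

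The smallest difference of a single peak was -0.46 ± 0.86 (limma SE), at chr5:40772851-40773900, 738 kb from the start of Hs3st1, a heparan sulfate sulfotransferase gene. Its heights were -0.14, -0.52, -0.30 and -3.64 with DOX, against -0.22 and -1.16 after withdrawal, and DOX replicate 4 had 0 reads there. Without that library the difference was 0.37. A peak at chr2:114511051-114511650, 30.7 kb upstream of Dph6, a gene of diphthamide synthesis, had 0.29, 0.91, 0.13 and -2.83 with DOX, against 0.09 and -0.51 after withdrawal. The groups overlapped at both peaks. In mitosis the Dph6 peak held 2.11, 0.85, 0.75 and 1.30 with DOX, against -0.89 and -1.77 after withdrawal. A peak at chr2:27394651-27395700, 24.5 kb downstream of the start of Wdr5, a subunit of histone methyltransferase complexes, had 0.43, 0.78, 0.62 and -0.49 with DOX, against -0.55 and -0.16 after withdrawal. Its difference was 0.69 ± 0.60 (limma SE, adjusted p = 0.255) and 0.97 without DOX replicate 4, below 1 with and without that library. RNA of Wdr5 was higher with DOX, by 0.33 ± 0.07 on the log2 scale (edgeR SE, adjusted p = 0.0046), with a median of 281.5 CPM over 9 DOX libraries against 215.2 CPM over 9 withdrawn libraries. The changes of Dph6 (0.03, adjusted p = 0.90, edgeR) and Hs3st1 (0.50, adjusted p = 0.41, edgeR) did not pass. Of 8 tested genes that were nearest, within 50 kb, to a peak with a difference below 1, 1 was higher and 1 lower (12.5% each). Among all tested genes that were nearest to any peak within 50 kb, 12.1% were higher and 9.30% lower. Over all genes the shares were 8.47% and 8.43%.

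The difference varied little with distance from a transcription start. The median difference was 3.88 at the 1163 peaks centred within 1 kb of a start, 3.82 at the 3678 peaks from 1 to 10 kb, 3.74 at the 5599 from 10 to 50 kb and 3.63 at the 4119 farther out. The median height within 1 kb minus that beyond 10 kb was -0.22, -0.16, 0.12 and 0.03 in DOX replicates 1 to 4, against -0.42 and -0.32 in the withdrawn replicates. The means differed by 0.31, with p = 0.133 in the exact permutation test, two-sided, the smallest possible. Over peaks above the median DOX height the difference was 0.20 with p = 0.40 in the same exact test.

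At the 94 promoters with sequence, all 94 peaks were higher with DOX, where 99.6% of all peaks were. The median difference was 3.73 in the 15 with AAGGTCA (range 2.71 to 4.60) and 3.63 in the 79 without it (range 1.88 to 5.18). At Rab21, a small GTPase of endosomes, the peak held 0.46, 0.93, 0.93 and 1.15 with DOX, against -0.84 and -1.19 after withdrawal, a difference of 1.88. At Cbx1, which encodes a heterochromatin protein, it held 1.16, 1.82, 1.62 and 1.38 with DOX, against -1.28 and -0.04. Both are class 1 peaks whose window lacks the core, and their groups did not overlap, as at 99.4% of all peaks. At Clec2d, a C-type lectin gene with the core on both strands of its window, the heights were 1.74, 2.87, 1.94 and 2.39 with DOX, against -1.32 and -0.53. Its copy on the reverse strand is part of the longer TCAAGGTCA. Ccl20, a chemokine gene, had 0.56, 1.67, 0.80 and 3.47 with DOX, against -4.15 and -1.60 after withdrawal, where its peak held 0 and 8 reads. Wdr86 had -0.55, 0.12, 0.77 and 2.52 with DOX, against -5.16 and -2.60. A match or its absence describes the letters of the window and no more.

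The strongest peaks of pluripotency genes were higher with DOX at all 14 genes described, while relative to the median peak of each library the sign turned at Sox2. For each gene the highest peak assigned to it (nearest start, within 50 kb) was described. All 14 were called higher with DOX, against 99.6% of all peaks, with differences from 3.15 to 6.83. The 71 peaks of these 14 genes had a median difference of 3.85, against 3.74 for all peaks, and all 71 were called. Their differences ran from 1.81 to 6.83, and both ends belong to Tfcp2l1, where the peak at 1.81 kept 28.5% of its linear height. In the other 33 genes of the naive, core and LIF lists with a peak, the highest peak was called too, and over all 47 such genes the differences ran from 2.44 (Pramel7) to 6.83 (Tfcp2l1).

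Among the transcription factors, the largest difference was at chr1:120544651-120544950 inside Tfcp2l1, a naive factor downstream of LIF and STAT3. Its heights were 2.95, 4.42, 4.16 and 5.45 with DOX, against -3.15 and -2.02 after withdrawal. The groups did not overlap. The withdrawn libraries held 0 and 3 reads there, and the ratio of summed reads per M reads was 111 (95% exact interval 37.9 to 541, counting error only). A peak at chr1:13117951-13118550, 1006 bp upstream of Prdm14, a repressor of differentiation genes, held 1.91, 3.94, 2.50 and 4.52 with DOX, against -4.15 and -3.02. The peak inside Esrrb itself, at chr12:87706351-87706950 and 4584 bp from the start, held 0.59, 2.22, 1.78 and 2.90 with DOX, against -4.15 and -3.60. It was nearly empty after withdrawal, with 0 and 2 reads, and the ratio was 65.8 (95% exact interval 18.1 to 546.4).

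At Pou5f1, which encodes Oct4, the peak 726 bp upstream held 1.39, 2.34, 2.22 and 5.14 with DOX, against -1.99 and -2.02. At Nanog, the peak 4156 bp upstream held 2.01, 3.18, 2.77 and 4.81 with DOX, against -1.41 and -0.20. At Sox2, the peak 18.8 kb downstream of the start held 1.66, 2.72, 2.09 and 3.64 with DOX, against -0.93 and -0.31. The DOX libraries lay above both withdrawn ones at all 3 genes, as at 99.4% of all peaks. Among the 14 highest peaks Sox2 kept the most, 11.3% of the linear height, and its difference of 3.15 was below the median of all peaks, so that its sign turned where heights were set against the median peak (-0.51 centred, -0.43 with TMM and -0.32 with DESeq2, none of them called).

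The Kruppel-like factor genes had similar differences, 4.09 at Klf2, 4.05 at Klf5 and 3.97 at Klf4. Klf2 had 2.27, 3.51, 3.02 and 3.03 with DOX, against -1.80 and -0.45 after withdrawal, at a class 2 peak 15.2 kb from the start. Klf4 had 0.53, 1.39, 1.69 and 2.73 with DOX, against -3.58 and -1.19, at a peak 928 bp upstream. Tbx3, a naive T-box factor, had 2.63, 3.30, 2.50 and 5.25 with DOX, against -2.99 and -0.60, 41.8 kb upstream. Zfp42, a widely used ES cell marker, had a difference of 4.43, Sall4, a zinc-finger partner of Oct4, 4.31, Socs3, the feedback inhibitor of LIF signalling, 4.24, and Nr0b1, which encodes Dax1, 3.88. In none of the 14 did the groups overlap, which also held at 99.4% of all peaks.

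**Figure D5:**
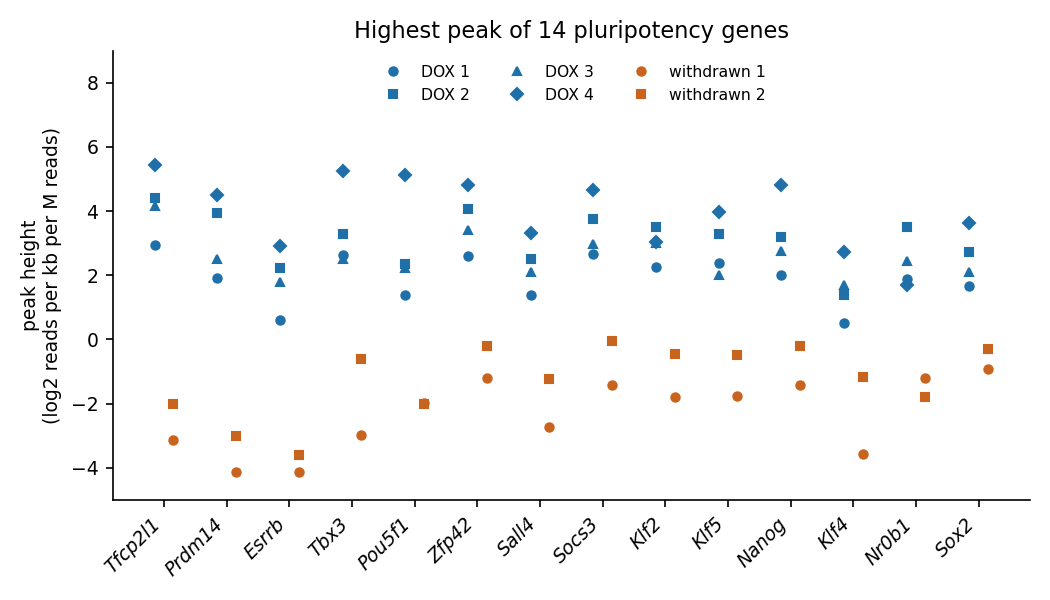
Height of the highest peak of 14 pluripotency genes (vertical axis, log2 reads per kb per M reads) in each of the 4 DOX libraries and the 2 withdrawn libraries, ordered by the difference. The DOX points lie above both withdrawn points at all 14 genes, as at 99.4% of all peaks, by the widest margin at Tfcp2l1 and Prdm14.

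The 10 largest differences among peaks with a mean DOX height above the median ran from 6.78 to 7.39. Of these, 7 were class 4 and 3 class 2. The largest was at chr19:5848951-5849400, 26.0 kb from the start of Frmd8, which encodes a FERM-domain protein. It held 2.10, 3.38, 3.39 and 4.87 with DOX, against -3.73 and -4.19 after withdrawal. The withdrawn libraries held 0 and 1 read there, and the ratio of summed reads per M reads was 282 (95% exact interval 50.3 to 11139). At Lama5, the gene of a laminin chain, the peak 1786 bp upstream held 2.19, 3.79, 3.71 and 4.02 with DOX and 0 reads in both withdrawn libraries, which makes it at least 67.3-fold higher with DOX, taking 3 reads over the group as the floor. Inside Zfpm1, which encodes a cofactor of GATA factors, a peak held 3.24, 3.84, 3.85 and 5.55 with DOX, against -3.73 and -2.19. The others were nearest Gpr133, Aars2, Plxdc1, Tfcp2l1, Prdm14, Icam1 and Septin9. Of the 10, 8 lay within 50 kb of a start, while the peaks nearest Gpr133 and Septin9 lay 146 kb and 109 kb away. These 10 were chosen for the size of the difference, so calls among them under other scalings of the same values are no separate support. All 10 were called with centred heights and 8 with DESeq2, which gave the other 2 no adjusted p, and 0 with edgeR's TMM scaling (adjusted p from 0.068 to 0.083). The highest peaks of the 12 pluripotency genes other than Tfcp2l1 and Prdm14 were called under none of these 3 scalings. Of these, 4 had no adjusted p in DESeq2. Few peaks of any kind were called there. Of all 14559, centred heights called 404 higher (2.77%) and 79 lower (0.543%), DESeq2 243 and 112, and TMM 0 and 0.

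Lists of genes by role gave like values. The naive, core and LIF lists include the 14 pluripotency genes above, lists can share genes, and all were written with earlier results of these data known. Every peak of every list was called higher with DOX, against 99.6% of all peaks, and 0 had a difference below 1. The median difference was 3.90 over 81 peaks of 23 naive genes, 3.94 over 50 peaks of 14 core genes, 3.76 over 52 peaks of 13 genes of the LIF receptor and STAT3, and 3.57 over 27 peaks of 9 formative and primed genes. It was 3.63 over 20 peaks of 14 genes of oxidative metabolism, a program that estrogen-related receptors drive in other tissues, and 3.82 over 29 peaks of 12 housekeeping genes. Primitive endoderm genes had 3.99 over 14 peaks, trophoblast genes 3.87 over 26 peaks and fibroblast or feeder genes 3.32 over 5 peaks.

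RNA of genes beside peaks was compared after 24 h, not 48 h, of withdrawal, so the 2 readouts are set side by side. Esrrb RNA checked the withdrawal: in early G1 it was 202.8, 246.6 and 278.1 CPM with DOX (lowest, median, highest of 3), against 139.7, 155.2 and 192.6 CPM after withdrawal. In late G1 it was 285.7, 323.0 and 341.3 CPM with DOX, against 160.1, 162.0 and 173.4 CPM, and in G2 254.1, 261.8 and 304.2 CPM with DOX, against 182.6, 193.0 and 195.0 CPM. It was higher with DOX in every phase with no overlap, by 0.68 ± 0.08 on the log2 scale (edgeR SE, adjusted p = 3.8e-05), and remained well above 0 after 24 h. Reads of the transgene and of the disrupted gene cannot be told apart in these counts, nor can fewer cells of a kind and less RNA per cell.

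Over all genes, 1194 of 14092 were higher (8.47%) and 1188 lower (8.43%) with DOX in edgeR's quasi-likelihood test. A block for the replicate number gave 2530 (18%) and 2538 (18%). With counts summed over the 3 phases, chosen after seeing the data, there were 15 and 8, and 745 and 989 with the block, so that RNA counts depend on how libraries of the same number are treated. Of the 22 genes nearest to the 10 largest differences and the 14 pluripotency peaks, 5 were higher and 2 lower with DOX, and 8 and 3 with the block. Gpr133 and Septin9, farther than 50 kb from their peaks, are among the 22. None of the 7 passed with counts summed and no block.

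Zfpm1 RNA had a median of 4.25 CPM with DOX (range 2.91 to 4.75, 9 libraries) against 1.72 CPM after withdrawal (0.827 to 2.96, 9 libraries), a change of 1.18 ± 0.18 (log2, edgeR SE, adjusted p = 0.00036). Tfcp2l1 had 279.5 CPM with DOX (196.1 to 298.3) against 135.5 CPM after withdrawal (110.2 to 171.9), with no overlap, a change of 0.91 ± 0.09 (adjusted p = 1.5e-05, edgeR). The ranges of Tbx3 (change 0.66, adjusted p = 0.023, edgeR) and Klf4 (0.35, adjusted p = 0.026, edgeR) overlapped, and leaving out 1 library ended either call in several cases. Lama5 and Sall4 were lower with DOX, by changes of -0.53 (adjusted p = 0.0036, edgeR) and -0.42 (adjusted p = 0.0077, edgeR), although their peaks were higher. Prdm14, with 1 of the largest differences in binding, had a change of 0.24 ± 0.27 (adjusted p = 0.57, edgeR).

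Sorted by the binding difference, genes beside peaks went over from slightly more lower calls to more higher calls. Among tested genes with a peak in the lowest of 5 equal bins of the difference, 11.1% were higher and 11.9% lower with DOX. The bins above it had 11.8% and 10.2%, 12.9% and 9.65%, and 14.5% and 9.45%. In the highest bin 15.3% were higher and 8.87% lower. Genes to which no peak within 50 kb was assigned had 6.37% and 7.92%. Each peak was assigned to its nearest start alone, so such genes can still have a peak that near. With the block the lowest bin had 20.5% higher and 22.8% lower, and the highest 26.8% and 17.7%. A gene can stand in several bins, and these shares are descriptions. Beside the 231 peaks highest in both withdrawn libraries, 8 of 122 tested genes were higher (6.56%) and 13 lower (10.7%).

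The counts of the gene lists read against 8.47% of all genes higher and 8.43% lower, and 12.1% and 9.30% of genes nearest to a peak within 50 kb. Naive genes had 7 of 24 higher and 2 lower, genes of the LIF receptor and STAT3 7 of 15 higher and 0 lower, and oxidative metabolism 9 of 28 higher and 2 lower. The lists are not separate: Tfcp2l1 stands in both the naive list and that of the LIF receptor and STAT3. Core genes had 0 of 16 higher and 7 lower, and formative and primed genes 0 of 17 higher and 6 lower. Housekeeping genes had 2 of 24 in each direction. With the block, against 18% of all genes in each direction, naive genes had 10 higher and 6 lower, genes of the LIF receptor and STAT3 9 and 3, oxidative metabolism 12 and 4, core genes 0 and 12, formative and primed genes 1 and 9, and housekeeping genes 3 and 8.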

How the data were processed

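Per the submitters' processing notes, build mm9, CASAVA 1.8, Bowtie and DESeq2 were used, with no roles given; the sources used here name neither the peak caller nor the annotation or strand setting. The deposited peak heights are log2 reads per kb of peak per M (mega) reads, written with a decimal comma, a unit read from the values: 100% are whole reads within 0.05 read, an empty peak being set to 0.9 read. The deposited exonic table holds raw counts per gene, per the file headers. Columns headed noco were taken as mitosis libraries, a word the labels do not use.

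Heights of 12 libraries entered 1 limma fit with trend (limma 3.58.1, R 4.3.3) of 4 group means. RNA counts of 18 libraries entered edgeR 4.0.16 (quasi-likelihood test, filterByExpr, TMM) as 6 group means, with the mean over phases as contrast. P-values were adjusted by Benjamini-Hochberg over all features at 0.05. The scripts were tested on simulated data. Exact permutation tests enumerated libraries. RNA replicate numbers paired libraries (correlation of deviations 0.11 to 0.53 in all 9 pairs), with no shared source stated in the labels. Recovered reads served edgeR and DESeq2 1.42.0 as alternatives. Promoter sequences are RefSeq's (GRCm38.p6), and 27 symbols turned into dates were restored through accessions. Peaks were assigned to the nearest mm9 start of that table within 50 kb, and peaks farther out are named by their nearest gene. Named peaks are the 10 called with the largest difference among those above the median DOX height, and the highest of 14 pluripotency genes. Members and lists were chosen with earlier results of these data known. Intronic counts were not used.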

Additional observations from a re-analysis of the deposited data

Results flagged for a closer look

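In 4 of 47 groups of 4 DOX libraries checked, 1 library lay far from the other 3 relative to the spread of the group, where chance gives about 1 in 20 groups. At the Hs3st1 peak DOX replicate 4 had a height of -3.64, against -0.14, -0.52 and -0.30 in the others. At the Olfm4 peak it had -3.27, against -0.40, -0.20 and -0.51, and at the Setmar peak -2.27, against 0.74, 0.74 and 0.42. All 3 are among the smallest differences, and these peaks were chosen on values that include this library. At the Lama5 peak DOX replicate 1 was the low one, with 2.19, against 3.79, 3.71 and 4.02.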

How the results depend on the processing

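The rise with DOX kept its direction and its count within 1.5 times with the 6 interphase libraries alone (14450), the replicate block (14541), library totals in edgeR (14509), an adjusted p under 0.01 (14424), a difference beyond 1 (14327) and each library left out (13661 to 14539, 0 lower in each). It did not with scalings that set the typical peak to 0: 404 higher and 79 lower with centred heights, 0 higher with TMM (1046 higher and 516 lower at an unadjusted p under 0.05) and 243 higher and 112 lower with DESeq2. Of 22 named peaks, the one near Sox2 turned sign there (-0.51, -0.43, -0.32), and DESeq2 gave 6 no adjusted p. The contrast by distance from a start, 0.31, was 0.20 (p = 0.40, exact permutation test) over peaks above the median DOX height, 0.28 for 2 kb against 50 kb, and 0.25 to 0.36 with 1 library left out. A filter of 10 reads in 2 libraries removed 0 peaks.

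The 30 peaks with a difference below 1 became 14 with the replicate block, 14 to 46 with 1 library left out (14 without DOX replicate 4, 46 without DOX replicate 2), 18 with EKOiE libraries alone and no DOX replicate 4, 11 below 0.5, 88 below 1.5 and 12691 with centred heights, of which 5445 were then above the median DOX height. Within interphase, ChIP-seq numbers did not pair DOX with withdrawn libraries (correlations 0.17 and -0.32), and pair 2 joins different cell lines. Across phases, withdrawn libraries of the same number were alike in their share of reads in peaks. It was 0.303% and 0.309% for replicate 1 and 0.654% and 0.707% for replicate 2 (interphase and mitosis). Whether they share a source was not tested.

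RNA counts moved to 2530 higher and 2538 lower with the replicate block, to 15 and 8 with summed counts and to 745 higher with summed counts and the block, and ran from 840 to 1292 higher and 907 to 1474 lower with 1 library left out. Tbx3 lost its call in 5 and Klf4 in 10 of those fits. The cause of these moves was not tested. Few withdrawn reads per peak limit single-peak values, with 3 at the median peak of withdrawn replicate 1.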

Other observations

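Wider peaks kept more of their signal. The median difference was 4.11 at 2066 peaks of 300 to 450 bp, 3.89 at 6347 of 600 to 900 bp, 3.57 at 3978 above 900 and up to 1500 bp and 3.30 at 2168 wider ones, and the medians of linear height kept were 5.81%, 6.76%, 8.41% and 10.1%. Median heights with DOX were 1.45, 2.42, 2.01 and 2.94 in the narrowest peaks (DOX replicates 1 to 4), against -2.99 and -1.19 after withdrawal. In the widest they ran from 0.73 to 2.31 with DOX, against -2.43 and -1.14 after withdrawal. The mean of the DOX libraries' medians was 2.20 in the narrowest bin and 1.45 to 1.47 in the other 3, while the difference fell over all 4 bins. The part of width in the difference was not tested. The median difference by chromosome ran from 3.52 on chromosome 3 to 3.93 on chromosome 4, with 3.63 on the X chromosome.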
